A study of Homo sapiens with 2 samples.

Results

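Transcripts of 10 genes that act in axon growth and in stress kinase signalling were compared between substate 1 and substate 2 of H9 human embryonic stem (ES) cells. They were the 5 genes of the DPYSL family (CRMP1, DPYSL2, DPYSL3, DPYSL4 and DPYSL5), the leucine-rich repeat genes ISLR and ISLR2, and the 3 c-Jun N-terminal kinase (JNK) genes MAPK8, MAPK9 and MAPK10. The array held 22439 genes that could be named, of which 16001 were measured on both arrays, and all 10 genes were among the latter. DPYSL5, ISLR2 and MAPK10 were chosen by a measured rise between these arrays in 2 agreeing probes each. The other 7 genes were taken in as their relatives. The rises of these 3 genes and the agreement of their probes are therefore a description and support nothing by themselves. The 10 genes had 19 probes, of which 17 stood well above background in both substates, 1 in substate 2 alone and 1 in neither.

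H9 is an established human ES cell line. The submitters kept it on Matrigel, an extracellular matrix preparation, in the serum-free medium TeSR-E8, and hybridised Cy3-labelled RNA to 1 single-colour Agilent array for each substate. RNA of substate 1 came from passage 35 and RNA of substate 2 from passage 50, so substate and passage cannot be told apart. Per the study's methods, H9 cells had been kept on vitronectin and were moved to Matrigel at passage 35. Time on Matrigel may therefore also have differed between the 2 arrays, and it cannot be told apart from substate either. In the study's own description, substate 1 colonies looked typical and carried the keratan sulphate epitope R-10G with little vimentin, and substate 2 colonies had wide gaps between cells, less R-10G and more vimentin. With 1 array per substate no test was possible and no difference has a replicate check. How the cells of a substate were set apart for the array RNA is not given in the sources used here. In bulk RNA of this kind, more cells with a transcript and more transcript per cell cannot be told apart.

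The proteins of the DPYSL family, also called collapsin response mediator proteins (CRMPs), are relatives of the enzyme dihydropyrimidinase that lack its activity. They bind tubulin and other cytoskeletal proteins, pass on the growth cone signal of the repellent semaphorin 3A, and are switched by phosphorylation through CDK5 and GSK3B. ISLR2, also known as LINX, is a membrane protein with leucine-rich repeats and an immunoglobulin domain that binds the receptors TRKA and RET in sensory and motor axons, and ISLR, also known as Meflin, is its relative in mesenchymal cells. The JNK kinases phosphorylate the transcription factor JUN and cytoskeletal proteins. MAPK8 and MAPK9 are made in most tissues, and MAPK10 mainly in brain, heart and testis.

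Each array had 60901 non-control spots for 58201 probes. Well above background were 57.4% of these spots for substate 1 and 54.7% for substate 2, and 0 spots were saturated. The normalised signal was log2 of the processed signal minus the 75th percentile of the array, so 0 stands for a bright probe at that percentile and negative values for dimmer ones. The difference was substate 2 minus substate 1 on this log2 scale, and a gene's difference was the mean over its probes that stood well above background in both substates. The error given with a probe's difference was the error that the scanner software assigned to single spots, and it covers neither cells nor RNA preparation. For bright member probes it came to the same 0.20 each time. The spot noise of 0.07 used in the closing sections is a different quantity, taken from repeated spots of a probe. Over the 16001 genes measured on both arrays the differences had a median of 0.08 and an SD of 0.38, and 59.8% of the genes were higher in substate 2. Bright probes leaned upwards. The median difference was -0.02 in the dimmest of 4 equal groups of probes by mean signal and 0.16 in the brightest.

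DPYSL5, ISLR2, ISLR and MAPK10 were the members with a probe at least 2-fold higher in substate 2, and no member had a probe at least 2-fold lower. Of the 18 member probes that were well above background on at least 1 array, 8 were at least 2-fold higher. The same was true of 1.55% of all 33166 such probes, while 1.67% were at least 2-fold lower. Counted by gene, 1.77% of the 16965 genes with such a probe had a 2-fold higher probe and 1.6% a 2-fold lower one. Most of the 8 probes belong to genes chosen for their rise, so nothing is read from the count against this background. The rule of the study was a Z-score, the distance of a difference from the mean difference of all probes in SDs of that difference. A Z-score of 2 or more was reached by 3.03% of all 58201 probes and by 7 of the 19 member probes. A Z-score of -2 or less was reached by 3.3% of all probes and by 0 member probes. The 7 included the third DPYSL5 probe at a Z-score of 4.68, although its signal in substate 1 was not well above background. Nothing is read from this count either. The lowest member probe inside the 2-fold limit was a DPYSL5 probe at 2.44-fold, apart from a bound of 2.01-fold, and the highest outside it was a DPYSL4 probe at 1.46-fold. The median gene difference was 0.51 over the 10 members, 0.50 over the DPYSL family, 1.46 over ISLR and ISLR2, and 0.07 over the JNK genes.

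**Figure D1:**
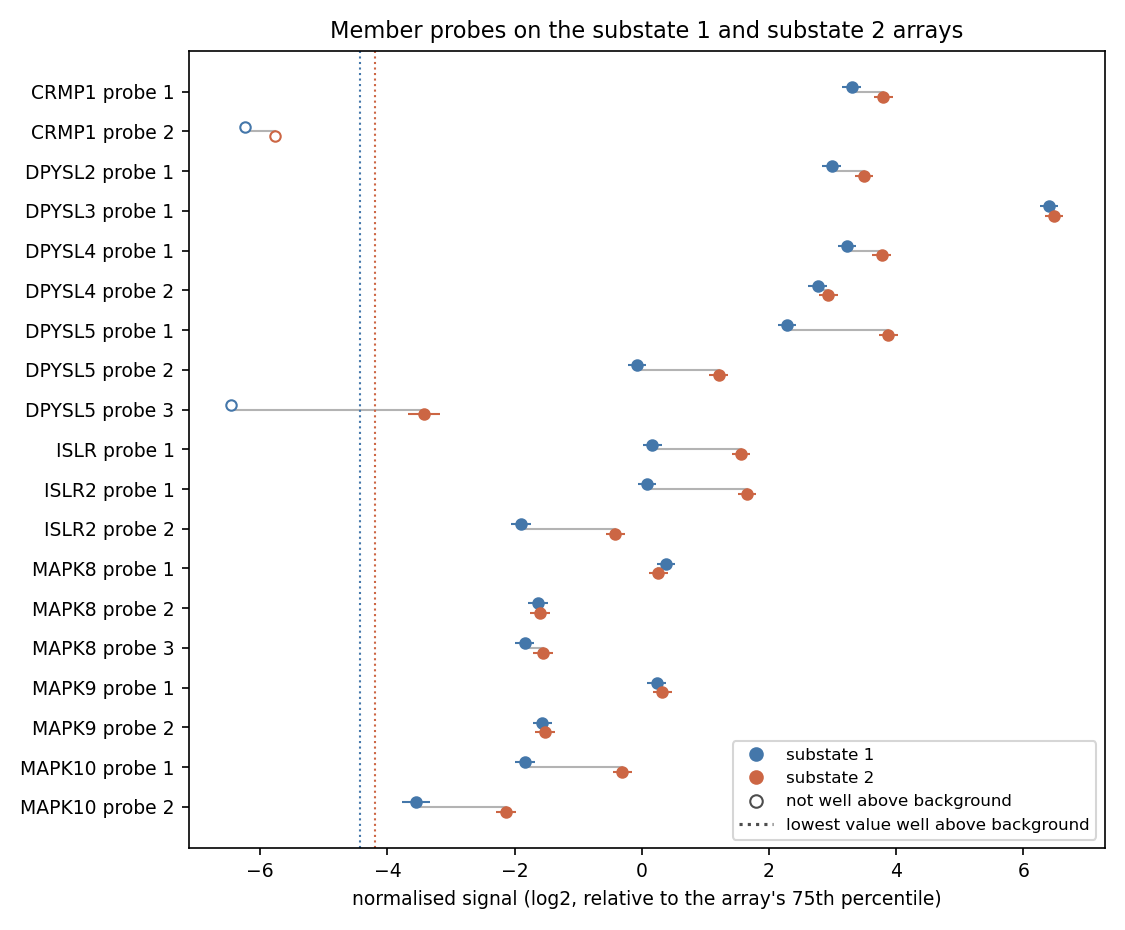
Normalised signal (log2, relative to the array's 75th percentile) of the 19 member probes on the substate 1 and substate 2 arrays, with bars for the error estimated by the scanner software and open points for probes not well above background. The probes of DPYSL5, ISLR, ISLR2 and MAPK10 lie further to the right in substate 2, whereas those of DPYSL3, MAPK8 and MAPK9 nearly coincide.

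DPYSL5, or CRMP5, antagonises the neurite outgrowth that other CRMPs promote. Its first probe (A_23_P210224) had processed signals of 1527 for substate 1 and 4044 for substate 2, a difference of 1.59 ± 0.20 or 3.02-fold. The second probe (A_33_P3222183) had signals of 296.7 and 636.0, a difference of 1.29 ± 0.20 or 2.44-fold. Both probes lay higher in substate 2, by several times the spot error, although the second missed the Z-score limit at 1.92. Agreement between probes was part of the choice of DPYSL5 and adds no support. The third probe (A_23_P401691) was not well above background in substate 1, with a signal of 3.55, and reached 25.5 in substate 2. Set against the lowest signal well above background on the substate 1 array, this was at least 2.01-fold higher, a bound that rests on a dim probe. The mean difference of DPYSL5 was 1.44, and 44 of the 16001 genes, DPYSL5 included, rose at least as far.

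CRMP1 and DPYSL2, both carriers of the semaphorin 3A signal, and DPYSL4 were moderately higher in substate 2, and none of them reached 2-fold. CRMP1 had signals of 3085 and 3830, a difference of 0.50 ± 0.20 or 1.41-fold. Its second probe had signals of 4.14 and 5.06, well above background on neither array, and gets no fold. DPYSL2, or CRMP2, which promotes microtubule assembly at the tip of the axon, had signals of 2480 and 3102, a difference of 0.51 or 1.43-fold. The probes of DPYSL4, or CRMP3, disagreed in size. The first had signals of 2934 and 3757 with a difference of 0.54, and the second 2132 and 2105 with a difference of 0.17. A probe whose raw signal is slightly lower in substate 2 can thus have a positive difference, because the 75th percentile itself was at a signal of 313.7 on the array of substate 1 and 275.4 on that of substate 2. The measured probes of these 3 genes all lay in the brightest of the 4 groups by signal, whose median difference was 0.16. The 3 genes lay above the median of all genes, but so did many others. CRMP1 was matched or exceeded by 1143 genes, DPYSL2 by 1056 and DPYSL4, at a mean difference of 0.36, by 2709.

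DPYSL3, or CRMP4, which bundles actin and marks young neurons, had signals of 26450 and 24590. Its difference of 0.08 equalled the median of all genes to 2 decimals, and quantile and loess normalisation turned it to -0.10. The direction of DPYSL3 therefore depends on the scaling. Within the family, the rise of 2-fold or more belonged to DPYSL5 alone, and the difference between DPYSL5 and its relatives was not tested.

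**Figure D2:**
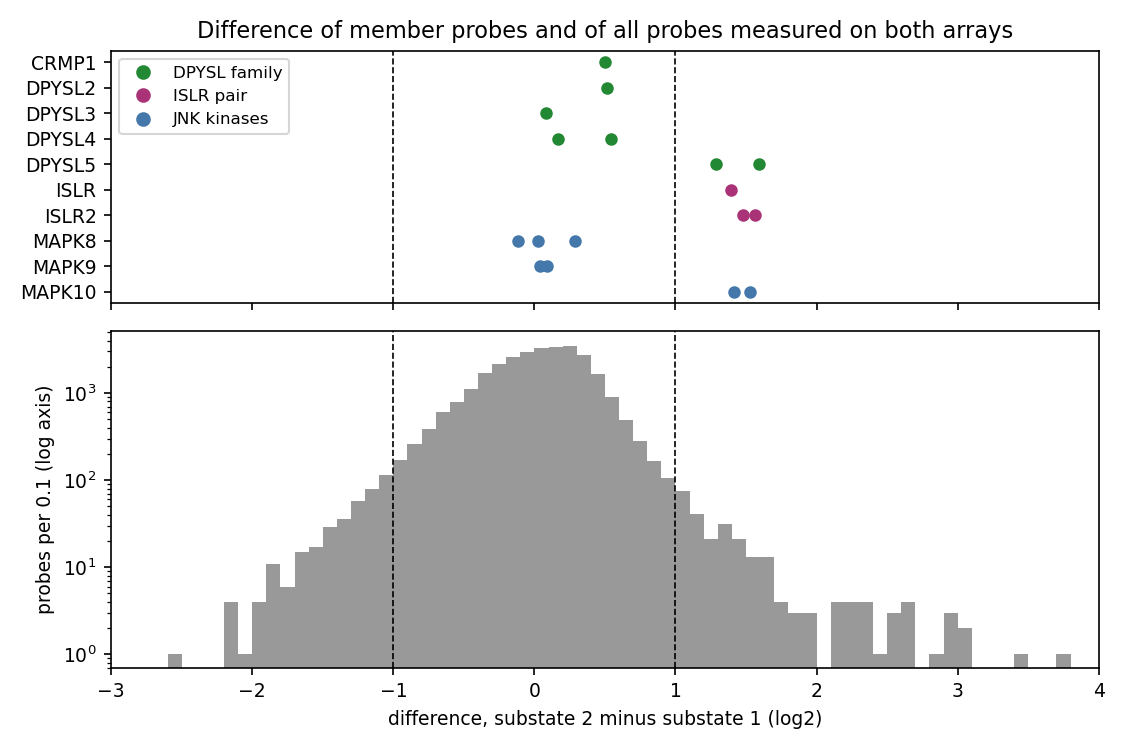
Differences (log2, substate 2 minus substate 1) of the member probes measured on both arrays, above the histogram of all probes measured on both arrays, whose vertical axis is logarithmic. Dashed lines mark 2-fold in either direction, and the probes of DPYSL5, ISLR, ISLR2 and MAPK10 lie beyond the upper line between 1.29 and 1.59.

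ISLR2 had the largest mean difference of the 10 members. Its first probe (A_32_P379467) had signals of 332.2 and 864.2, a difference of 1.57 ± 0.20 or 2.96-fold. The second probe (A_33_P3418091) had signals of 84.25 and 206.3, a difference of 1.48 ± 0.22 or 2.79-fold. The probes differed from each other by less than the spot error, but agreement between probes was part of the choice of ISLR2. The mean was 1.52, or 2.88-fold, and 31 of the 16001 genes, ISLR2 included, rose at least as far. ISLR was taken in as the relative of ISLR2 and not for its rise, though earlier results of these data were known. It had a single probe (A_23_P3312) with signals of 352.0 and 812.8. This was a difference of 1.40 ± 0.20 or 2.63-fold with a Z-score of 2.09, and 51 genes, ISLR included, rose at least as far.

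ISLR2 and ISLR lie close together on chromosome 15, and the genes around them were therefore described as well, since position played no part in the choice of the members. The long noncoding RNA gene LOC283731 comes between them only when genes are ordered by lowest annotated coordinate. In the promoter table described below, the start of LOC283731 lies on the side of the ISLR2 start that faces away from ISLR. Its only probe went from a normalised signal of -2.24 to 0.29, a difference of 2.53, which exceeded that of either member. STRA6, the cell surface receptor that takes up retinol, is the next measured gene beyond ISLR and had differences of 0.88 and 0.65 in its 2 probes, with a mean of 0.77. The run of higher genes ended on either side. GOLGA6A before ISLR2 had a difference of -0.11 and PML, STOML1 and LOXL1 further out 0.30, 0.05 and 0.20, while CCDC33 and CYP11A1 beyond STRA6 had 0.27 and 0.11. The median over all genes of chromosome 15 was 0.05, so the rise was not shared by the chromosome. STRA6 was singled out after its values were seen.

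In the promoter table of RefSeq (build GRCh38.p14) the starts of ISLR2 and LOC283731 lie 377 bases apart on opposite strands and point away from each other, and the 250 bases before each start overlap by 124 bases. The annotated span of ISLR2 also contains LOC283731, because some ISLR2 transcripts begin further upstream than the start in that table. The nearer start of ISLR lies 44.1 kb from that of ISLR2. The windows of the pair are shown because both genes were higher in substate 2 and the windows share this stretch. Which starts the measured transcripts used is not known. The ISLR2 window lies at chr15:74129405-74129654 on the plus strand and the LOC283731 window at chr15:74129279-74129528 on the minus strand. Each is written 5′ to 3′ on its own strand and ends at the base before the start, and capitals mark the bases that lie in both windows.
ISLR2: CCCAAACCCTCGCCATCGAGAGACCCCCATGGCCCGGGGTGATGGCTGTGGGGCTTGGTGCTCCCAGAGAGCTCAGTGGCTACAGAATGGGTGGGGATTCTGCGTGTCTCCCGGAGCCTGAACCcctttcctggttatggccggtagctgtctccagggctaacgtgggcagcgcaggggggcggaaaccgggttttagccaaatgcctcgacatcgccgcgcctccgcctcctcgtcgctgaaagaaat
LOC283731: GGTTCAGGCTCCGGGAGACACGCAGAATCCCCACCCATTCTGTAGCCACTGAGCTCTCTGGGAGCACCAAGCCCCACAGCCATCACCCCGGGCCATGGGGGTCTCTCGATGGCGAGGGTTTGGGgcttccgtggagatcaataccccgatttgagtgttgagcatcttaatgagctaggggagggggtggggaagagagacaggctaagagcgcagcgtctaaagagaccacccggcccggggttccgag
The capitals in one window are the reverse complement of those in the other.

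**Figure D3:**
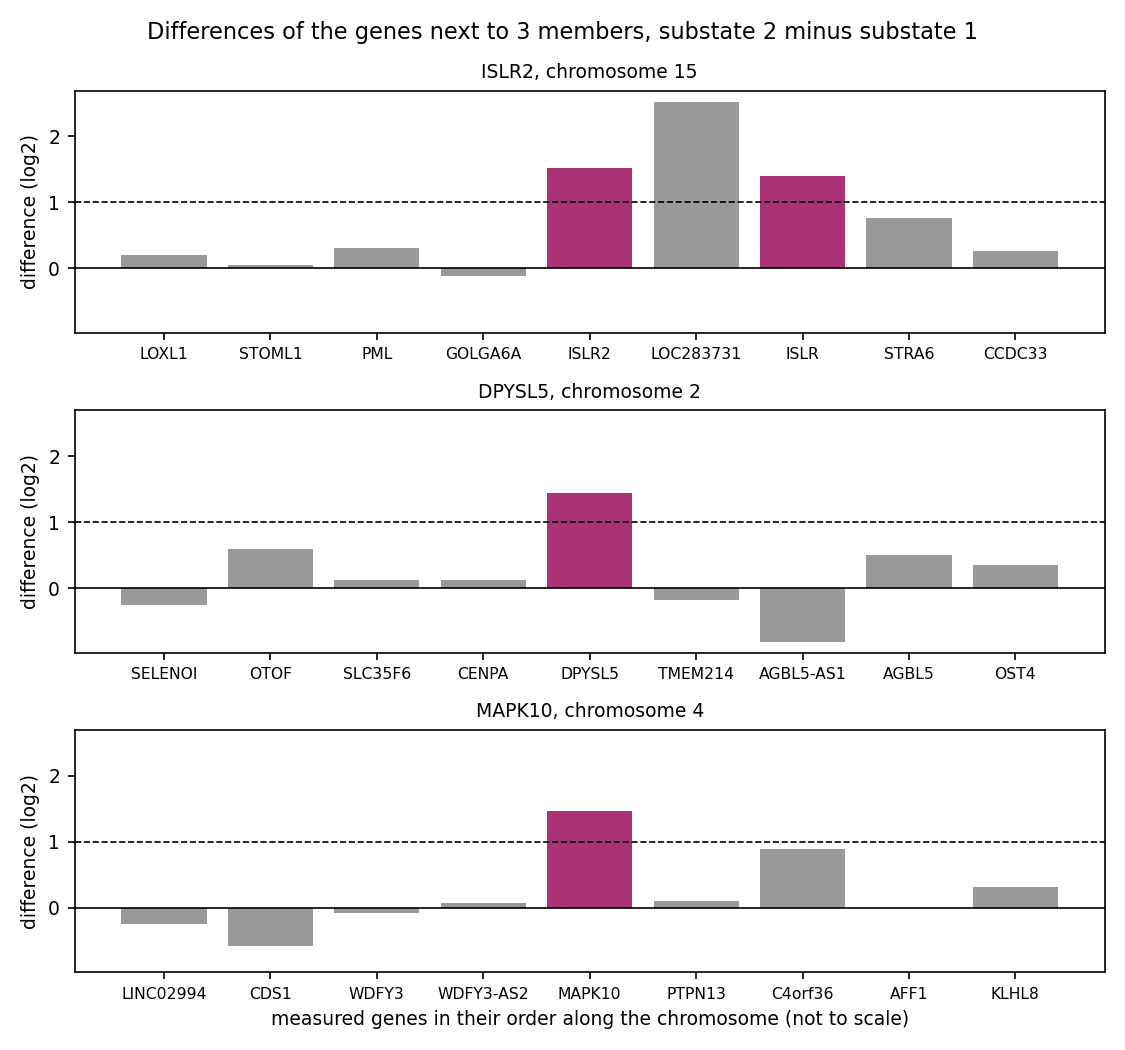
Gene differences (log2, substate 2 minus substate 1) of ISLR2, DPYSL5 and MAPK10 and of the nearest measured genes. Genes are ordered by lowest annotated coordinate, not to scale, with members in colour and a dashed line at 2-fold. LOC283731, ISLR and STRA6 next to ISLR2 are higher in substate 2, at 2.53, 1.40 and 0.77, and no neighbour of DPYSL5 or MAPK10 reaches 2-fold.

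MAPK10, or JNK3, was the only JNK gene with a probe at least 2-fold higher. Its first probe (A_23_P45025) had signals of 87.78 and 222.6, a difference of 1.53 ± 0.21 or 2.89-fold. The second probe (A_33_P3254216) had signals of 26.76 and 62.70, a difference of 1.42 ± 0.27 or 2.67-fold. The mean was 1.47, or 2.78-fold, and 38 of the 16001 genes, MAPK10 included, rose at least as far. Both probes were dim. The second lay in the dimmest of the 4 groups by signal, in which 1.82% of the probes were at least 2-fold higher, against 0.12% in the brightest, which held the first DPYSL5 probe. Under normexp, a background correction that adds an offset and so shrinks the differences of dim probes, MAPK10 fell to a mean difference of 0.88, with 1.06 for its first probe and 0.70 for its second.

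MAPK8, or JNK1, and MAPK9, or JNK2, stayed near the median of all genes. The probes of MAPK8 went from signals of 407.2 to 329.5, from 101.2 to 90.38 and from 87.43 to 93.77. Their differences were -0.12, 0.03 and 0.29 ± 0.22, so the probes did not share a direction. The probes of MAPK9 went from 368.8 to 344.5 and from 106.1 to 95.92, with differences of 0.09 and 0.04. The mean difference was 0.07 in each of these genes, and 8359 genes rose at least as far as MAPK8 and 8335 as MAPK9.

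DPYSL5 and MAPK10 had no neighbour that was 2-fold higher. Next to DPYSL5 on chromosome 2, CENPA and SLC35F6 had differences of 0.13 each on one side, and TMEM214 and AGBL5-AS1 had -0.17 and -0.81 on the other. Next to MAPK10 on chromosome 4, WDFY3-AS2 and WDFY3 had 0.08 and -0.08, and PTPN13 and C4orf36 had 0.10 and 0.89. The medians over all genes of the chromosomes were 0.07 for chromosome 2 and 0.03 for chromosome 4.

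The sequence before the start was described because the choice of the members did not use it. The promoter table held 19 windows of 250 bases for 9 of the members, and DPYSL2 is not shown. The windows of the genes that rose differed in composition. The CG dinucleotide occurred 30 and 34 times in the windows of DPYSL5, 17 times in that of ISLR2, 3 and 8 times in those of ISLR and 8, 1 and 0 times in those of MAPK10, against a median of 11 over all 35116 windows. The first listed windows of DPYSL5 (chr2:26847745-26847994, plus strand, GRCh38.p14) and MAPK10 (chr4:86360054-86360303, minus strand, GRCh38.p14) are shown for this contrast, 5′ to 3′ up to the base before the start, with each CG in capitals.
DPYSL5: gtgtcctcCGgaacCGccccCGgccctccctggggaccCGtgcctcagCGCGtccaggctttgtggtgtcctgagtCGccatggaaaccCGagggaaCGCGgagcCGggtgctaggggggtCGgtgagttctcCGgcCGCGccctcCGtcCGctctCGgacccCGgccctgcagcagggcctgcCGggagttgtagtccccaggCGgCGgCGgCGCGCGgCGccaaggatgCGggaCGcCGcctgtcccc
MAPK10: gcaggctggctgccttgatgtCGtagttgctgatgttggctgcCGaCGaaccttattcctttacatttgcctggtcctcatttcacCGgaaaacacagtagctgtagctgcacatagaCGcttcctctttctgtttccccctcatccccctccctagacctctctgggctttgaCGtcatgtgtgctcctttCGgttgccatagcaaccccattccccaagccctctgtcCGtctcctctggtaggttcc
The E-box to which ZEB and SNAI factors bind (CACCTG, or CAGGTG on the other strand) was in 0 of the 19 member windows and in 17.5% of all windows. The GC box (GGGCGG or CCGCCC) was in 12 of the 19, 3 of them among the 8 windows of the genes that rose, and in 42.6% of all windows. The TATA sequence (TATAAA or TTTATA) was in 0 of the 19 and in 10.7% of all windows. These matches describe letters within 250 bases and say nothing about binding.

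Genes that act with the members were described from 9 lists. The lists, which were chosen with earlier results of these data known, held 107 genes, of which 101 had a probe well above background. A probe at least 2-fold higher was present in 6 of the 101, or 5.94%, beside 1.77% of all such genes, and a 2-fold lower one in 0. The median difference of the 100 measured genes was 0.15, beside 0.08 over all genes. Under normexp 2 of the 6 genes, STMN2 and LRRN3, kept a 2-fold higher probe. The share of all probes at least 2-fold higher also fell under normexp, from 1.55% to 0.27%.

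Of the kinases and partners of the CRMPs, which include CDK5 and GSK3B and the cytoskeletal proteins that CRMPs carry, all 16 were measured. None differed by 2-fold, and the median was 0.25 with a range of -0.05 to 0.58. Of the 16, 15 lay above 0, beside 59.8% of all measured genes, and 13 lay above the median of all genes. Their summed signal, relative to the 75th percentile, went from 81.88 to 95.65. In the reception of semaphorin 3A, 10 of 11 genes were measured with a median of 0.10 and a range of -0.36 to 0.94. SEMA3A itself had signals of 387.3 and 355.5 and a difference of 0.06. PLXNA4, a co-receptor for this ligand, had 1 probe that was well above background in substate 2 alone, with signals of 14.04 and 41.58, which is at least 3.28-fold higher. Its only probe measured on both arrays had signals of 25.15 and 24.66 and a difference of 0.16, so these probes disagreed in size. The other PLXNA4 probes stood well above background on neither array and get no fold. By real-time RT-PCR, the study reports this gene as significantly upregulated in the cells with more vimentin. Of the 4 enzymes of pyrimidine metabolism that share ancestry or pathway with the family, 2 were measured, with differences of 0.30 and 0.33.

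The JNK cascade above and around the kinases stayed within 2-fold throughout. All 18 upstream kinases were measured, with a median of 0.10 and a range of -0.18 to 0.37. The 6 scaffolds that hold the cascade together had a median of -0.10 and a range of -0.41 to 0.50, of which MAPK8IP2, with signals of 197.5 and 245.7, was the upper end. Of the 6 phosphatases that switch JNK off, 5 were measured, with a median of 0.17. The 10 other MAP kinases had a median of 0.26, and MAPK11, a p38 kinase, was the only one with a 2-fold higher probe. That probe had signals of 47.84 and 99.62 and a difference of 1.25, whereas the second MAPK11 probe had 0.40.

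Among the 15 JNK substrates and AP-1 factors the median was 0.20, and 2 genes had a 2-fold higher probe. Both encode neuronal microtubule regulators. STMN2, or SCG10, which destabilises microtubules in growth cones, had signals of 190.6 and 458.0, a difference of 1.45 or 2.74-fold. MAP2, which stabilises dendritic microtubules, had signals of 896.5 and 1602, a difference of 1.03 or 2.04-fold, close to the limit. The AP-1 genes had no common direction, with differences of -0.33 ± 0.21 for JUN, 0.20 ± 0.21 for JUND and 0.56 ± 0.21 for FOS. None of the 15 had a 2-fold lower probe, and the lowest mean was -0.65 for BMF, which promotes cell death. Among the neuronal membrane proteins with leucine-rich repeats and the TRK and RET receptors, 18 of 21 were measured, with a median of 0.01 that turned to -0.05 when the arrays were scaled on probes measured on both and to 0.15 under normexp. LRRN3, a leucine-rich repeat protein of neurons, had signals of 168.5 and 422.1, a difference of 1.51 or 2.85-fold. AMIGO3, which acts in neurite growth, had a dim probe at least 2.67-fold higher and a brighter one with a difference of 0.28.

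**Figure D4:**
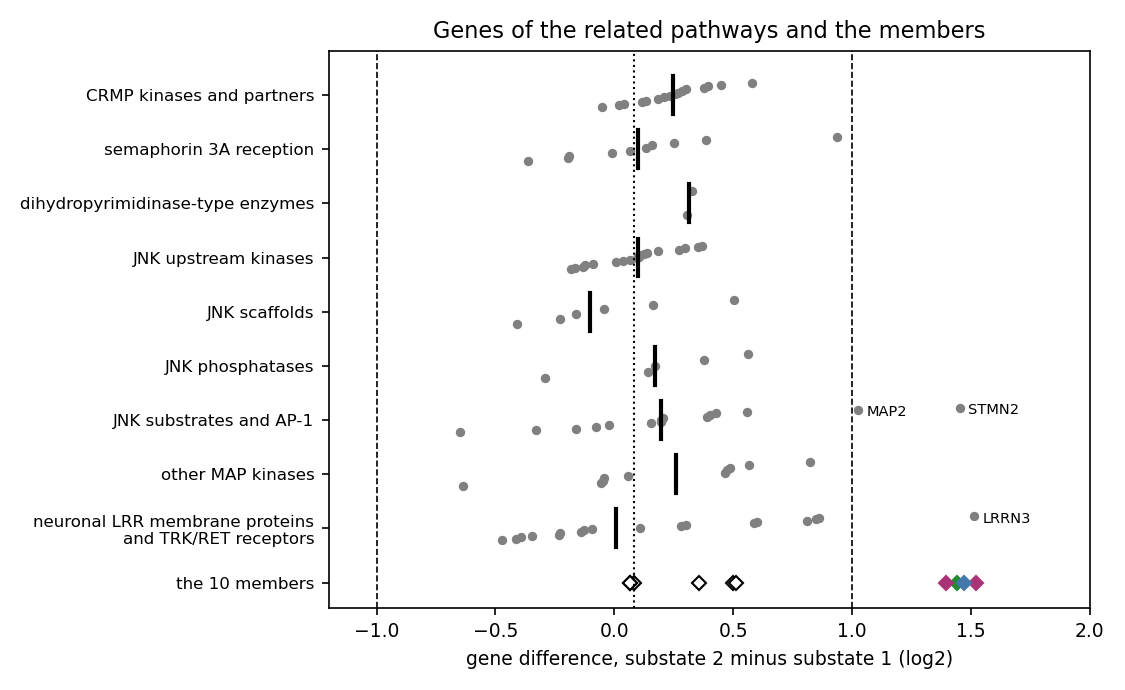
Gene differences (log2, substate 2 minus substate 1) of the genes measured on both arrays in the 9 related lists, with a black bar at each list's median, and of the 10 members as diamonds below. The dotted line is the median of all measured genes, 0.08, and dashed lines mark 2-fold; MAP2, STMN2 and LRRN3 are the list genes whose mean passes the upper line.

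Markers of other cell types were read for the cells behind these values. Of 7 pluripotency markers, TDGF1 was not matched to a named probe. The other 6 (POU5F1, NANOG, SOX2, LIN28A, DNMT3B and DPPA4) stood well above background in both substates, with differences of 0.07 to 0.42. Of the 12 neuron markers, 10 stood well above background in both substates and ELAVL3 and ELAVL4 in neither. Their median was 0.21 with a range of -0.74 to 1.45, with 1 gene having a 2-fold higher probe, STMN2, and 1 a 2-fold lower one, SYT1. The SYT1 probes disagreed in size, at -1.22 for the dimmer and -0.27 for the brighter. The summed signal relative to the 75th percentile went from 16.72 to 20.07. The neuron list and the JNK substrates share STMN2 and DCX. Of the 7 neural progenitor markers reported, 3 were well above background in substate 1 and 6 in substate 2, and PAX6 on neither array. A 2-fold higher probe was present in 3 of them, FABP7 and LHX2 with differences of 1.44 and 2.32 and POU3F2 at least 13.3-fold higher, beside 1.77% of all genes. NES had a mean difference of 0.38, and SOX1 and HES5, well above background in substate 2 alone, were at least 1.71-fold and at least 1.90-fold higher. The summed signal went from 10.16 to 16.63, most of it NES, and without NES from 1.57 to 5.47. Fibroblast markers went from a sum of 168.0 to 153.0, most of it THY1, and without THY1 from 14.33 to 10.59. COL1A1 and COL1A2 had differences of -0.49 and -0.50 and PDGFRB 0.21, with COL3A1, DCN, LUM and POSTN well above background on neither array. The sum of the neural crest markers went from 6.09 to 6.65, most of it FOXD3, and without FOXD3 from 1.52 to 1.92. The measured neural crest markers had differences of 0.02 to 0.37, with TFAP2A, TFAP2B and PAX3 well above background on neither array. FABP7, LHX2 and POU3F2 were thus higher in the same substate as DPYSL5, ISLR2, ISLR and MAPK10, and their part in these differences was not tested.

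Across the scalings and corrections, the 4 rises kept their direction and the remaining members stayed below 2-fold. DPYSL5 ranged from 1.28 to 1.48, ISLR from 1.33 to 1.44, ISLR2 from 1.22 to 1.57 and MAPK10 from 0.88 to 1.52. CRMP1 ranged from 0.38 to 0.54, DPYSL2 from 0.40 to 0.55 and DPYSL4 from 0.25 to 0.40. The number of member probes at least 2-fold higher was 7 when the arrays were scaled on probes measured on both. It was also 7 when only probes measured on both arrays were counted. Under normexp it was 6, as the third DPYSL5 probe and the second MAPK10 probe fell short. Normexp lowered the share of all probes at least 2-fold higher from 1.55% to 0.27%.

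**Figure D5:**
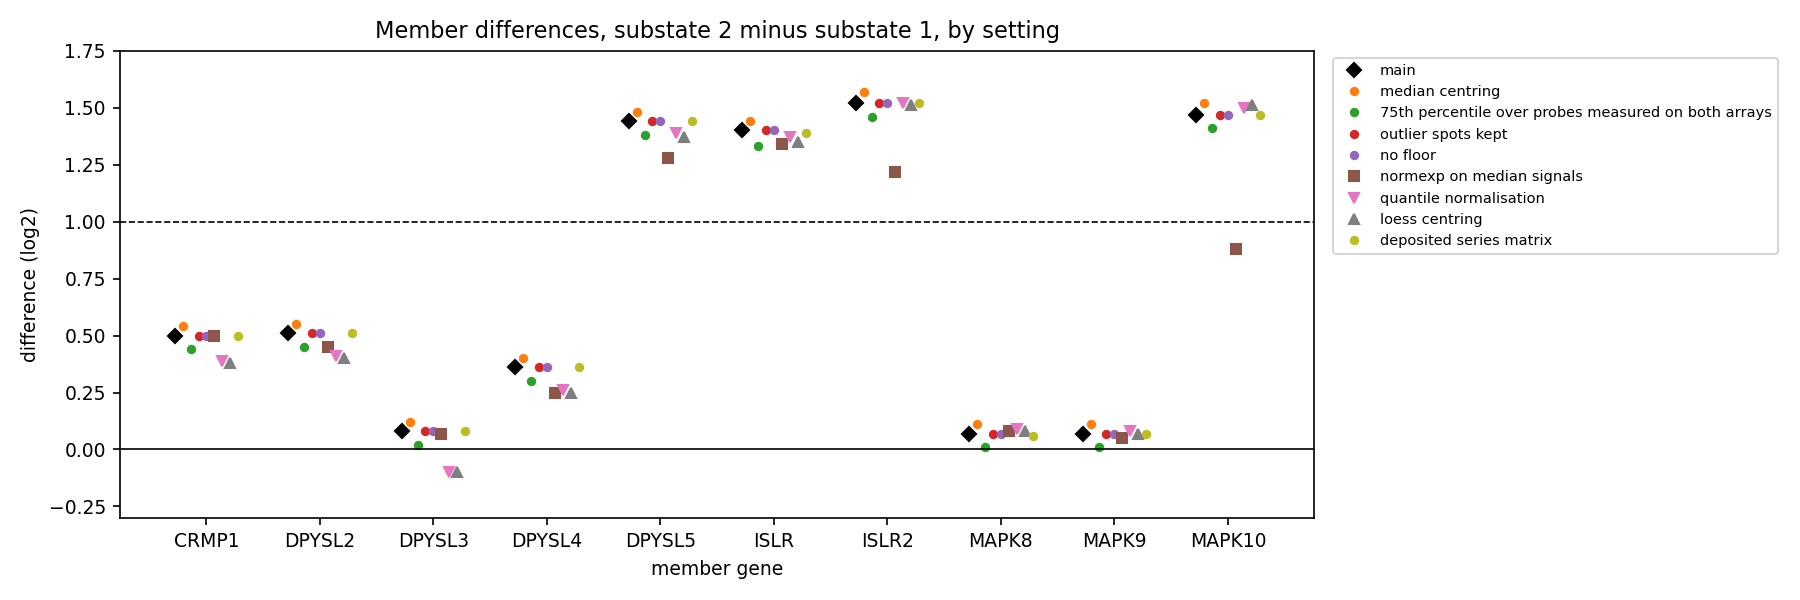
Difference (log2, substate 2 minus substate 1) of each member gene under the main scaling and 8 alternatives, 1 symbol each, with a dashed line at 2-fold. DPYSL5, ISLR and ISLR2 stay above the line in all of them, MAPK10 falls to 0.88 under normexp, and DPYSL3 changes sign under quantile and loess normalisation.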

How the data were processed

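H9 RNA of substate 1 and of substate 2 was measured on 1 array each. The authors deposited scanner files with an intensity per spot. Per the file headers, Feature Extraction 11.5.1.1 (protocol GE1_1105_Oct12) subtracted the background and removed spatial trends. The deposited log2 values of the series matrix matched those computed here within 0.01, apart from a constant per array, for 100% of the probes, and their column medians were -3.56 for substate 1 and -3.61 for substate 2. Following the study, signals under 1 were raised to 1 (0 spots) and the 75th percentile of an array was subtracted from its values. Outlier spots were left out and spots of a probe averaged. Both arrays lay on 1 slide and were read in 1 scan, at different positions.

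Probes were named by RefSeq accession in a table of assembly GRCh38.p14, which matched 31104 of 58201 probes (53.4%). The array was annotated on hg19, so coordinates are given only for windows of the promoter table, which names its own build. Named were every member and probe, list genes with a 2-fold probe (at most 4 a list), and the nearest measured neighbours of DPYSL5, ISLR2 and MAPK10. The members and lists were chosen with earlier results of these data known. A probe well above background on 1 array only was compared, on its dim array, with its own value or the lowest signal well above background there, whichever was higher ("at least N-fold"). The error of a difference combines both spots' estimates by the scanner software. Alternatives were other centrings, quantile and loess (span 0.3) normalisation, normexp (limma 3.58.1 in R 4.3.3, offset 50) on median signals, no floor, outlier spots kept, the deposited log2 values, other Z-score bases and a 1.5-fold limit. Normexp on median signals was added after seeing the data. Python 3.11.15 and pandas 2.3.3 did the rest, and the procedure was tested on simulated data. Protein sequences were not used here, and 1 marker gene is not reported here.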

Additional observations from a re-analysis of the deposited data

How the results depend on the processing

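The 4 rises, the direction of the other members except DPYSL3 and the absence of 2-fold lower member probes kept under those of the 13 alternatives that apply to them. Of 234 recomputed values 214 stayed within the spot noise (a log2 difference of 0.07, or 1.5 times for counts), 20 moved and 0 of the 4 rises reversed. This count is no measure of robustness. Leaving out the floor could change nothing, since no spot lay under it, and the deposited values matched those computed here apart from a constant. Keeping outlier spots left every member difference the same to 2 decimals. Normexp on median signals, whose offset of 50 compresses dim probes by construction, gave 1.28 for DPYSL5, 1.22 for ISLR2 and 0.88 for MAPK10, against 1.44, 1.52 and 1.47, and lowered the related genes with a 2-fold higher probe from 6 to 2. The median of the members was 0.40 after quantile normalisation and 0.39 after loess centring, against 0.51, and these settings turned DPYSL3 to -0.10. LOC283731 ranged from 1.83 to 2.57. The count of member probes with a Z-score of 2 or more was 7 to 8. Over all probes, 514 were at least 2-fold higher and 553 lower. These counts were 89 and 63 under normexp, 578 and 474 with median centring, 560 and 500 with quantile normalisation, 568 and 498 with loess, 447 and 685 when scaled on probes measured on both arrays, and 1999 and 2534 at a 1.5-fold limit. The median of all genes ran from 0.02 to 0.13. No paired analysis was possible because a single array stood for each substate, and leaving out a replicate was not possible either. Naming probes by the gene name column and the protein comparison were not run. The number of arrays limits the precision.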

Other observations

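Genes beside the other members were read in the same way. JAKMIP3 and INPP5A near DPYSL4 on chromosome 10 had differences of -0.87 and 0.83, and JAKMIP2-AS1 next to DPYSL3 on chromosome 5 had -0.83. STK32B near CRMP1 had 0.74 and MAN2B2 -0.67. The genes JAKMIP1, JAKMIP2 and JAKMIP3 lie near CRMP1, DPYSL3 and DPYSL4, and the genes PPP2R2A, PPP2R2B, PPP2R2C and PPP2R2D, which encode regulatory subunits of the phosphatase PP2A, near DPYSL2, DPYSL3, CRMP1 and DPYSL4. Their differences were 0.42, 0.00 and -0.87 for JAKMIP1, JAKMIP2 and JAKMIP3, and 0.04, 0.26, -0.12 and -0.23 for PPP2R2A, PPP2R2B, PPP2R2C and PPP2R2D. No 2-fold difference was measured among them. These neighbours were named after their values were seen.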
